A study of Saccharomyces cerevisiae with 16 samples.

Results

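The change in CMCT-dependent reverse transcription stops between log phase and stationary phase was measured in one yeast culture at 16364 positions, out of 5670205 positions listed outside the rDNA repeat on chromosome 12. A position was kept when at least 20 reads of natural RNA, with and without CMCT counted together, ended there in both growth phases. Positions whose counts were equal in all 16 libraries were counted once, which reduced 63033 positions to 16364. At each position the ratio was log2 of +CMCT over −CMCT reads, with 1 read added to each count and each library scaled by its total outside the repeat, and the change was the stationary ratio minus the log phase ratio. A change of +2 is therefore a 4-fold higher +CMCT to −CMCT ratio in stationary phase, and is called raised below; a change of −2 is called lowered.

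Pseudouridine (Ψ) is made from uridine in RNA that is already transcribed, either by stand-alone synthases (Pus enzymes) or by H/ACA particles in which a guide RNA directs the synthase Cbf5p. CMCT forms an alkali-stable adduct on Ψ, and reverse transcriptase stops beside the adduct, so that reads pile up there in the +CMCT library only. In stationary phase, yeast has used up its glucose, respires, and makes far fewer ribosomes.

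All samples were wild-type BY4741 yeast grown in rich medium (YPD). The 16 libraries form 4 experiments with 4 libraries each: natural poly(A) RNA and RNA transcribed in vitro from amplified transcripts (IVT, which carries no Ψ), each with CMCT (+CMCT) or mock treated (−CMCT). One culture was sampled in log phase at an OD of 0.8 and again in stationary phase at an OD of 4, and these are the growth phases compared. A second culture was sampled in log phase at an OD of 0.8 and after 30 min at 45 °C, and served for the spread between experiments. Each growth condition has 1 library of each kind, so the change has no replicate error. The 4 libraries of one growth condition shared a sequencing run, so run and condition cannot be told apart.

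Summed over all positions listed outside the repeat, the natural libraries held 22292567 +CMCT and 3932955 −CMCT reads in stationary phase. In log phase of the same culture they held 12913428 and 5219225. The −CMCT stationary library was the thinner of the stationary pair, and 375 of the 16364 positions had 0 −CMCT reads in it, against 267 in log phase. Per position, the median of both libraries together was 48 reads in stationary phase and 68 in log phase. Intervals below are 95% intervals from the 4 read counts and cover counting error only.

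The transcripts sampled differed widely between the growth phases. Ribosomal protein genes took 8861 RPM (reads scaled to the library total outside the repeat) of the −CMCT library in stationary phase and 164060 RPM in log phase. Genes of respiration and the citrate and glyoxylate cycles took 12876 and 5849 RPM, and CIT1, the citrate synthase of mitochondria, 610 and 142. Reads inside a single annotated gene took 735057 RPM in log phase and 226010 RPM in stationary phase. These sums and the totals run over all positions listed, and repeats have equal counts at up to 77 loci. Such counts enter the totals once per locus, so RPM values are not shares of separate reads. The culture in stationary phase and its RNA are one sample, and less RNA per cell cannot be told apart from other changes of level.

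The libraries of the second culture went against their labels. HSP26, which encodes a small heat shock protein, took 9341 RPM in the natural −CMCT library labelled log phase and 123 in the one labelled heat shock, against 128 in log phase of the first culture. HSP104, the disaggregase, took 3881 and 298, and SSA4, a stress-induced HSP70, took 2761 and 69.2. In the IVT libraries labelled log phase of that culture HSP26 took 14431 RPM with CMCT and 118 without. The labels were kept as given; the counts of changed positions and the list medians are given against the libraries labelled log phase and against those labelled heat shock.

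The paper lists sites in RPL11A and TEF1 as candidates in both of its log phase samples and in heat shock. RPL11A encodes a protein of the large ribosomal subunit and TEF1 encodes the translation elongation factor EF-1α. Both sites are on chromosome 16, at positions 731679 and 700830 in the deposited coordinates, and both are in coding sequence. Their surroundings are shown as DNA from 20-nt designed substrates, 5′ to 3′, because the change at each site is described below. Capitals mark bases 6 to 11 in RPL11A, which match a stretch of U2 snRNA that Pus1p modifies, and bases 8 to 13 in TEF1, which match the T loop of tRNA that Pus4p modifies.
RPL11A: acattTCTGTTggtgaatct
TEF1: tgtggaaGTTCGAaactcca

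At the RPL11A site 22 +CMCT and 0 −CMCT reads ended in stationary phase, against 636 and 8 in log phase of the same culture. The libraries labelled log phase of the other culture had 54 and 0, and those labelled heat shock 1970 and 27. The site was thus seen almost only with CMCT in all 4 experiments, with log2 ratios of 2.02 in stationary phase, 4.84 in log phase, and 5.26 in the libraries labelled log phase of the other culture.

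The change at RPL11A was −2.82, with an interval of −5.86 to 0.22. The stationary ratio is limited by its 22 reads, and a lower ratio in stationary phase was not detectable at this depth. IVT RNA had 3 and 1 reads there in stationary phase and 11 and 7 in log phase, too few for a ratio.

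At the TEF1 site, which TEF2 shares with equal counts, 22 +CMCT and 0 −CMCT reads ended in stationary phase and 265 and 10 in log phase. The libraries labelled log phase of the other culture had 124 and 6, and those labelled heat shock 816 and 30. The log2 ratios were 2.02, 3.29, 3.63 and 4.08, and the change was −1.27 with an interval of −4.28 to 1.75. As at RPL11A, the sign of the change was not resolved.

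**Figure D1:**
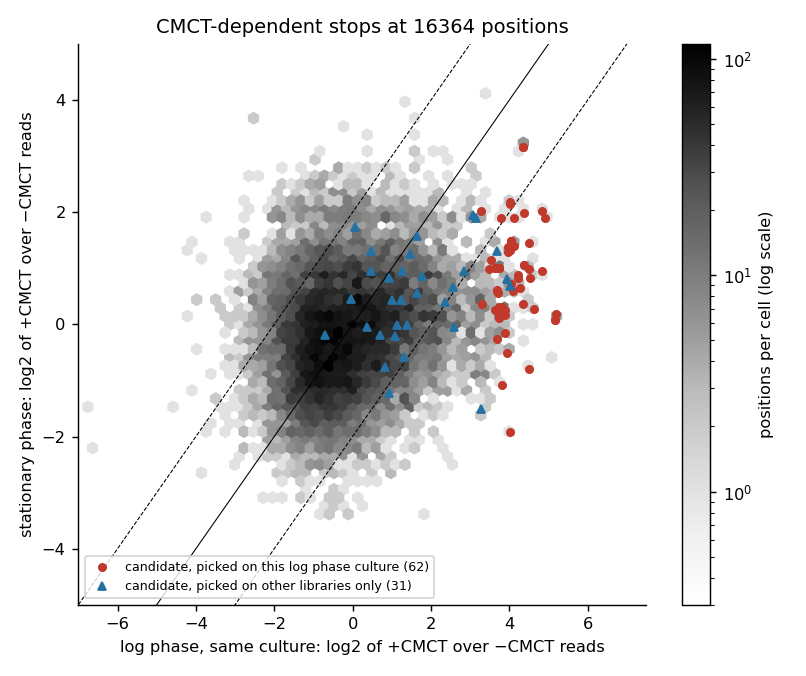
The +CMCT to −CMCT ratio in log phase (x axis, log2) against the ratio in stationary phase of the same culture (y axis, log2) at the 16364 positions, shaded by number of positions, with the 93 candidate sites that were kept drawn over them and lines at no change and at 4-fold. RPL11A and TEF1 lie high on both axes, while most candidate sites picked on this log phase culture lie between −2 and 2 on the y axis.

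Over all 16364 positions the median change was −0.07 on the log2 scale and the SD was 1.39. By 4-fold or more, 1082 positions (6.61%) were raised and 1291 (7.89%) were lowered, 14.5% in either direction. These counts depended on the processing: 107 were raised and 743 lowered with 10 reads added to each count, and 4114 and 278 without scaling. The ratios of the growth phases correlated weakly across positions, with Pearson's r of 0.22; positions share libraries and neighbouring reads, so they are not replicates.

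How much of this exceeds the difference between other experiments was read at positions with at least 20 reads in a further experiment. At the 8265 positions that also had them in the libraries labelled log phase of the other culture, the change had an SD of 1.24 and 10.7% passed 4-fold, 344 raised (4.16%) and 538 lowered (6.51%). The difference between both log phase experiments, as labelled, had an SD of 1.12 there, and 7.66% passed 4-fold, 326 higher (3.94%) and 307 lower (3.71%). At the 13874 positions with reads in the libraries labelled heat shock, 13.3% passed 4-fold for stationary against log phase, 5.93% raised and 7.41% lowered. For log phase of the same culture against those libraries 11% passed, 3.69% higher and 7.36% lower. A larger share thus passed between the growth phases than between experiments that did not involve stationary phase, and most of that share was also reached without it.

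With another baseline the stationary libraries looked less different. Against the libraries labelled log phase of the other culture, 105 of the 8265 positions (1.27%) were raised and 420 (5.08%) lowered, 6.35% in all, with an SD of 1.03. Against those labelled heat shock, 200 of the 13874 (1.44%) were raised and 726 (5.23%) lowered, 6.67% in all, with an SD of 1.03. The ratios of stationary phase correlated with r of 0.40 with those labelled log phase of the other culture, 0.34 with those labelled heat shock, and 0.22 with log phase of their own culture. The pair of second-culture experiments correlated with r of 0.70, and their difference had an SD of 0.73 at 8014 positions.

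**Figure D2:**
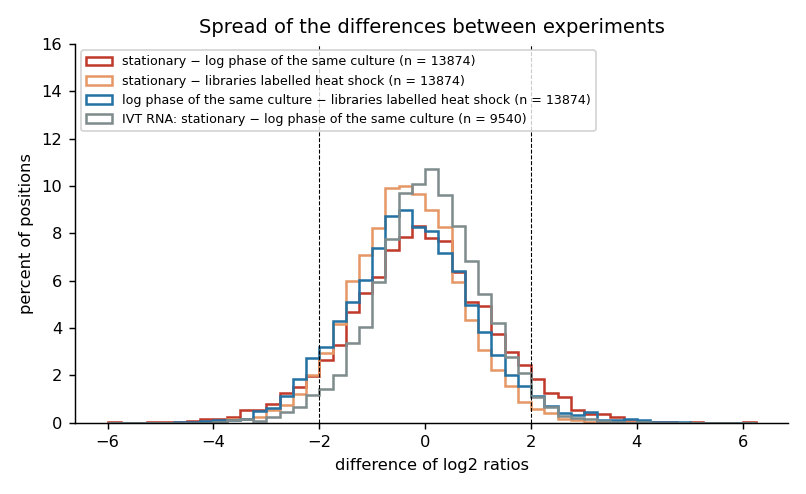
Percent of positions (y axis) by log2 difference of ratios (x axis) for stationary phase minus log phase of the same culture, stationary phase minus the libraries labelled heat shock, log phase of the same culture minus those libraries (13874 positions each) and IVT RNA (9540 positions), with dashed lines at 4-fold. The first curve has the largest SD, 1.34, and reaches furthest to the right beyond 4-fold.

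IVT RNA, which is made without Ψ, gave a narrower spread. Its ratios at the known Ψ sites of rRNA differed between experiments, as given below. At the 9540 positions with at least 20 IVT reads in both growth phases the IVT change had a median of 0.06 and an SD of 1.02, with 242 positions (2.54%) raised and 287 (3.01%) lowered, 5.55% in all. In natural RNA 449 of these positions were raised and 634 lowered. Of the 449, 34 were also raised 4-fold in IVT RNA, and of the 634, 53 were also lowered. The natural and IVT changes correlated with r of 0.21 across these positions.

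The raised and lowered positions differed more in the −CMCT libraries than in the +CMCT libraries. At raised positions the scaled +CMCT reads changed by a median of −0.39 on the log2 scale from log to stationary phase, while the −CMCT reads fell by a median of 3.11. At lowered positions +CMCT reads fell by a median of 0.99 and −CMCT reads rose by a median of 1.99. At positions in neither class both fell, by medians of 0.92 and 0.81. These medians follow in part from the rule, since a raised position must lose −CMCT reads or gain +CMCT reads.

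**Figure D3:**
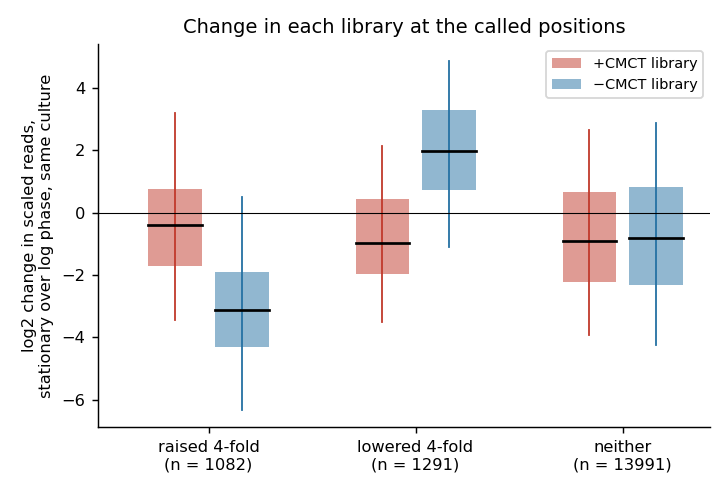
Log2 change of scaled reads from log to stationary phase (y axis) in the +CMCT and −CMCT libraries at raised, lowered and other positions; lines mark medians, boxes the middle 50% of positions and whiskers the 5th to 95th percentiles. Raised positions are set apart by their −CMCT reads, with a median of −3.11, and lowered positions by −CMCT reads with a median of 1.99.

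The raised positions mostly had a low ratio in log phase and a moderate one in stationary phase. Their median ratio was 1.09 in stationary phase and −1.53 in log phase of the same culture, and 200 of the 1082 reached a 4-fold ratio in stationary phase, beside 342 (2.09%) of all 16364. Of the 344 raised positions with reads in the libraries labelled log phase of the other culture, 43 were also raised 4-fold against those, and of the 823 with reads labelled heat shock, 111 were. The lowered positions had a median ratio of −0.58 in stationary phase and 2.10 in log phase, where 701 of the 1291 had a 4-fold ratio or more. Of 538 and 1028 lowered positions with reads in those libraries, 151 and 244 were also lowered 4-fold.

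The model fitted across positions called no change, with a stationary arm of 1 library pair. edgeR's quasi-likelihood test of the CMCT by stationary phase interaction, over stationary phase and both log phase experiments as labelled, called 0 of 16364 positions higher and 0 lower after Benjamini-Hochberg adjustment. At an unadjusted p under 0.05, 524 (3.2%) were higher and 279 (1.7%) lower, and the smallest adjusted p was 0.0606. DESeq2 also called 0 and 0, with 157 (0.959%) and 91 (0.556%) at an unadjusted p under 0.05. In the last comparison of this paragraph several higher calls were copies of a repeat with nearly equal counts. Positions 931852 of chromosome 7 and 138383 of chromosome 5, for example, both had 914 +CMCT and 44 −CMCT stationary reads. Several lower calls there were neighbouring nucleotides, such as 387139 and 387140 of chromosome 9, so not all calls are separate observations. Both baseline experiments of that comparison come from the second culture, so its error holds no difference between cultures and its calls are not replicated across cultures. The test has 1 residual degree of freedom and assumes that the stationary experiment varies as the log phase ones do. In simulated counts for the same 16364 positions it called 2 of 50 positions changed 4-fold and 45 of 50 changed 64-fold, so at this replication it can miss a 4-fold change. Without the pairing of +CMCT and −CMCT libraries edgeR called 0 and 0, with 26 (0.159%) and 12 (0.0733%) at an unadjusted p under 0.05. The count rested on log phase of the same culture: with the libraries labelled heat shock in its place, edgeR called 43 higher (0.263%) and 43 lower (0.263%).

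Restricted to the 1669 positions with at least 100 reads in both growth phases, edgeR called 2 higher (0.12%) and 0 lower. One was position 700997 of chromosome 16, in a stretch that TEF1 and TEF2 share (edgeR adjusted p = 0.00119). In stationary phase 160 +CMCT and 3 −CMCT reads ended there, in log phase 1697 and 1794. The libraries labelled log phase of the other culture had 100 and 98, and those labelled heat shock 1397 and 581. The change was 4.22 with an interval of 2.78 to 5.65, and the IVT change was 1.95, from 70 and 113 reads in stationary phase and 754 and 1145 in log phase.

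The other called position was 138245 of chromosome 3 in PGK1, the phosphoglycerate kinase of glycolysis (edgeR adjusted p = 0.0318). In stationary phase 141 and 15 reads ended there and in log phase 1470 and 2988. The ratio rose from −2.33 in log phase to 0.65 in stationary phase, while it was −0.66 in the libraries labelled log phase of the other culture and 0.64 in those labelled heat shock. The stationary ratio thus lay close to the one labelled heat shock, and the ratio of log phase of the same culture was the lowest of the 4.

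Among positions in a single gene with at least 50 reads in both growth phases, the 12 largest rises lay in genes of several functions. RPS17A and RPS17B, paralogs for one protein of the small ribosomal subunit, had equal natural counts at positions 226536 of chromosome 13 and 1354981 of chromosome 4. There 70 +CMCT and 0 −CMCT reads ended in stationary phase and 251 and 550 in log phase. The libraries labelled log phase of the other culture had 12 and 3, and those labelled heat shock 291 and 270. With the count of 0 set to 3 reads the ratio rose by at least 4.48 on the log2 scale. The copies cannot be told apart and count as one observation.

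SNA3, which encodes a membrane protein sorted to the vacuole, had 109 and 7 reads in stationary phase and 15 and 50 in log phase at position 136555 of chromosome 10. The change was 4.26 with an interval of 2.94 to 5.57. TDH1, an isozyme of glyceraldehyde-3-phosphate dehydrogenase that is made in stationary phase, had 630 and 42 in stationary phase and 34 and 89 in log phase at position 339133 of chromosome 10. Its change was 4.04, with an interval of 3.32 to 4.76, on the largest stationary count of the 12. In the second culture TDH1 had 105 and 71 reads in the libraries labelled log phase and 24 and 40 in those labelled heat shock, both with ratios below the stationary one.

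COX9, a subunit of cytochrome c oxidase, had 89 and 1 reads in stationary phase and 50 and 40 in log phase at position 334352 of chromosome 4, a change of 3.98 with an interval of 1.87 to 6.09. FBA1, the aldolase of glycolysis, had 94 and 10 in stationary phase and 296 and 1056 in log phase at position 326810 of chromosome 11, a change of 3.75. At FBA1 the libraries labelled heat shock had 886 and 824. GLK1, glucokinase, had 183 and 27 in stationary phase and 14 and 60 in log phase at position 52278 of chromosome 3. Its change of 3.54 came with 50 and 24 reads labelled heat shock, against which the change was −0.17, the opposite sign. The rest of the 12 (RPS12, HOM2, the Ty gene YNL284C-B, TDH2 and ADE3) changed by 3.36 to 3.81.

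At 4 of the named rises (TDH1, FBA1, GLK1 and TDH2) at least 20 reads ended in the libraries labelled log phase of the other culture, and the change against those was 1.34, 0.88, 1.17 and 1.73. With the libraries labelled heat shock as baseline it was 2.73, 1.15, −0.17 and 0.98. Both sets lie below the change against log phase of the same culture, which the choice of the largest rises against that baseline favours. In IVT RNA, over the named rises with at least 20 IVT reads in both growth phases, the change ran from −2.25 at SNA3 to 2.79 at ADE3.

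The 12 largest falls included genes of Ty retrotransposons, ribosomal protein genes and a glycolysis gene. YMR045C, a Ty gene, had 75 and 28 reads in stationary phase and 74 and 3 in log phase at position 358981 of chromosome 13. The change was −4.03 with an interval of −5.61 to −2.46. With the libraries labelled heat shock as baseline, which had 19 and 23 reads, it was −0.21. Of the 12 falls, 4 others lay in Ty genes (YJR027W, YDR098C-B, YDR261W-B and YOR192C-B), from −3.67 to −2.78. YDR261W-B and YOR192C-B had the same log phase counts, 49 and 7, and 50 and 24 against 51 and 24 in stationary phase, so they are not separate observations.

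RPL41A and RPL41B, which encode the shortest protein of the large ribosomal subunit, had 46 and 15 and 49 and 13 reads in stationary phase, and both 76 and 3 in log phase. Their changes were −3.91 and −3.63, and the log phase counts were equal at both, so they are not separate observations. TPI1, triose phosphate isomerase, had 82 and 11 in stationary phase and 181 and 4 in log phase at position 555785 of chromosome 4, a change of −3.59 with an interval of −5.14 to −2.04. HOR7, a gene known for its response to osmotic stress, had 58 and 12 in stationary phase and 78 and 3 in log phase, a change of −3.32. RPS30A and RPS30B, paralogs for another small-subunit protein, shared 49 and 8 in stationary phase and 189 and 9 in log phase, a change of −2.97. The last of the 12, YNL143C, had 79 and 70 in stationary phase and 89 and 32 in log phase, a change of −2.47. At most of these falls the log phase −CMCT count was under 10, so the log phase ratio there rests on few mock reads.

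**Figure D4:**
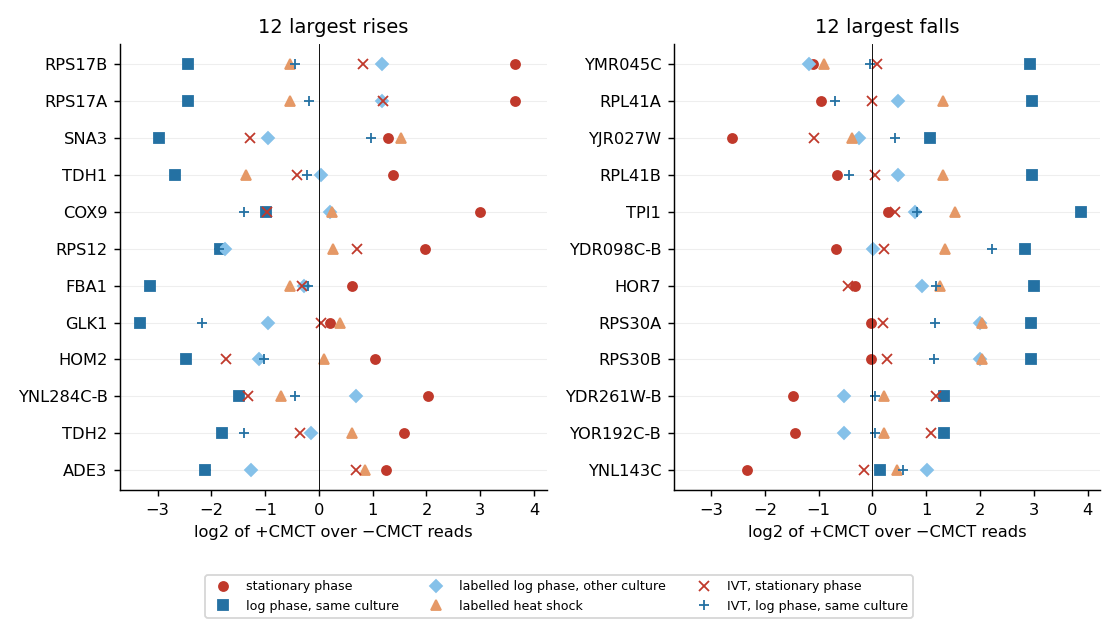
Log2 ratio of +CMCT to −CMCT reads (x axis) in the 4 natural experiments, as labelled, and in IVT RNA of both growth phases at the 12 largest rises and the 12 largest falls (y axis, genes). The ratio of log phase of the same culture (squares) is the lowest natural value at most rises and the highest at most falls, as the choice of positions by that ratio favours.

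A ratio of 4-fold or more was found at 342 positions (2.09%) in stationary phase, at 1058 (6.47%) in log phase and at 46 (0.281%) in both. Of these 46, 29 had 0 −CMCT reads in stationary phase. At 17 of them there were also 20 reads in the libraries labelled log phase of the other culture, and 12 of the 17 had a 4-fold ratio there. IVT RNA reached 4-fold at 5 of the 46 in stationary phase and at 1 in log phase, with no minimum of IVT reads set. Many of the 46 had few IVT reads. Among the 5, position 311762 of chromosome 7 had 8 and 1 in stationary phase and position 241788 of chromosome 8 had 3 and 0. The rest of the 46 therefore cannot be read as free of an IVT signal.

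Besides RPL11A and TEF1, the 46 held other mRNAs of high level. TDH3, the main glyceraldehyde-3-phosphate dehydrogenase, had 42 and 0 reads in stationary phase and 651 and 47 in log phase at position 883320 of chromosome 7. IVT RNA had 41 and 25 reads at that TDH3 position in stationary phase and 746 and 83 in log phase. The IVT log2 ratios were 1.24 and 1.68, against 2.92 and 2.46 in natural RNA. The site in RPL28, another protein of the large subunit, was position 311762 of chromosome 7. There 30 and 0 reads ended in stationary phase and 121 and 8 in log phase. Its stationary IVT ratio was 2.72, from 8 and 1 reads, above the natural ratio of 2.45. A position on chromosome 11 near a gene end, 26285, had 99 and 0 in stationary phase and 26 and 0 in log phase, but 0 reads in the libraries labelled log phase of the other culture and 13 and 3 in those labelled heat shock.

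The strongest stationary signal with depth lay in repeats. At position 980500 of chromosome 15 and position 735635 of chromosome 7, the former listed as a delta element and the latter in the reading frame YGR122C-A, listed as a Ty1 long terminal repeat, 407 +CMCT and 7 −CMCT reads ended in stationary phase and 49 and 0 in log phase. The libraries labelled log phase of the other culture had 37 and 3, and those labelled heat shock 64 with CMCT and 0 or 2 without. The log2 ratios were 3.17 in stationary phase, 4.34 in log phase and 2.72 in the libraries labelled log phase of the other culture, and the change was −1.17 with an interval of −4.20 to 1.86. Another position of the family, 472466 of chromosome 10, had equal counts at 23 loci and 50 in place of 49 log phase reads, so these loci are one observation of a repeat family. The change of the ratio was within counting error.

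Positions that moved the same way against all 3 other experiments were few. All 3 comparisons share the single stationary library pair, so they are not separate evidence of a change. At the 8014 positions with at least 20 reads in every natural experiment, 22 were raised 4-fold against each of the 3 and 92 were lowered. Of the 22, 17 lay in a single gene, beside 4344 of all 8014, and 21 had 0 or 1 −CMCT read in stationary phase. Of the 15 with IVT reads, 0 were raised 4-fold in IVT RNA. The TEF1 position 700997 was the exception with 3 −CMCT reads. ADH1, the main alcohol dehydrogenase, had a change of 4.11 at position 160157 of chromosome 15, with an interval of 1.15 to 7.07.

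Of the 92 lowered against all 3, 50 lay in a single gene, from 26 genes, and 25 of those in genes of glycolysis and fermentation. These shares were near those of all 8014 positions, of which 4344 lay in a single gene and 2008 in genes of glycolysis and fermentation. Of the 71 with IVT reads, 15 were also lowered 4-fold in IVT RNA and 47 were below 0. At position 387140 of chromosome 9, outside the annotated genes, 145 +CMCT and 239 −CMCT reads ended in stationary phase and 357 and 173 in log phase. The libraries labelled log phase of the other culture had 139 and 51, and those labelled heat shock 430 and 207. The change was −2.95 in natural RNA and −3.50 in IVT RNA, where 578 and 1034 reads ended in stationary phase and 386 and 14 in log phase. A change of this size was thus present in the IVT libraries as well. HSP10, the mitochondrial co-chaperonin, had a change of −2.21 at position 370567 of chromosome 15 and its interval of −4.45 to 0.03 reached 0. The RPL11A site described above is also among the 92. It had 22 +CMCT and 0 −CMCT reads in stationary phase, which limit its ratio, and its interval of −5.86 to 0.22 includes 0.

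The change differed with where a position lay. Of the 9047 positions in a single gene 8.93% were raised and 5.68% lowered, with a median of 0.14. Of the 4563 with no gene nearby 2.48% were raised and 11.8% lowered, with a median of −0.39. IVT RNA had the same order of medians, 0.22 in a single gene and −0.25 with no gene nearby. Against the libraries labelled heat shock 1.56% were raised and 5.63% lowered in a gene, and 1.03% and 4.29% with no gene nearby, so the order of the raised shares was kept and that of the lowered shares turned. Positions at 10 or more loci with equal counts, largely Ty elements and other repeats, had a median of −0.26, with 3.68% raised and 11.7% lowered.

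The share past 4-fold was highest at the thinnest positions. Among the 4129 positions whose thinner experiment had 20 to 24 reads, 19.4% passed 4-fold in either direction. Among those with 25 to 49 it was 15.0%, with 50 to 99 it was 10.3% and with 100 to 199 it was 7.19%. It was 10.2% of the 423 positions with 200 to 499, where 39 were raised and 4 lowered, and 10% of the 120 with 500 or more, where 9 were raised and 3 lowered. At those deepest positions the SD was 1.22 for all of them, 0.78 between both log phase experiments as labelled, and 1.07 between log phase of the same culture and the libraries labelled heat shock.

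Neighbouring positions shared little of the change. The changes of positions 1 nt apart correlated with r of 0.20, and of positions 50 nt apart with r of 0.09.

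By gene, the 6787 positions with counts of their own fell in 601 genes and had a median change of 0.25, with 690 raised (10.2%) and 283 lowered (4.17%). In the 26 genes with at least 50 positions the gene medians ran from −0.69 to 0.46, and 17 were above 0. The SD of these medians was 0.25, and the median SD of the positions within a gene was 1.23.

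HOR7 had the lowest median, −0.69 over 90 positions, with 0 raised and 14 lowered. CCW12, a cell wall mannoprotein, had −0.14 over 193 positions, with 5 raised and 14 lowered, and TPI1 had −0.16 over 254. The highest medians were those of TDH1, 0.46 over 132 positions with 19 raised and 7 lowered, of CPR1, the cytosolic cyclophilin, 0.46 over 58, and of POR1, the mitochondrial porin, 0.42 over 64 with 8 raised and 0 lowered. TDH2 had 0.38 over 95 and MPC2, a subunit of the mitochondrial pyruvate carrier, 0.34 over 59. Against the libraries labelled heat shock TDH1, CPR1, POR1 and TDH2 had medians of −0.51, −0.38, −0.85 and −0.47, all of the opposite sign. These rest on the 120, 58, 39 and 94 of their positions with at least 20 reads there.

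The 131 positions in 13 genes for translation factors had a median of 0.58, with 15 raised and 2 lowered, beside 10.2% and 4.17% over all positions in genes. With 10 reads added to each count the median was −0.34. YEF3, the fungal elongation factor 3, had the highest median of the named genes of this list, 1.90 over 8 positions with 4 raised, and HYP2, eIF5A, had 1.16 over 9. TEF1 and TEF2 had 0.41 and 0.19 over 42 and 43 positions. The list took 4167 RPM of the −CMCT library in stationary phase and 49313 in log phase.

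Genes of respiration and the citrate and glyoxylate cycles had a median of 0.53 over 270 positions in 39 genes, with 45 raised and 8 lowered (10.2% and 4.17% over all positions in genes). ALD6, a cytosolic aldehyde dehydrogenase, had 0.44 over 38, with 9 raised and 2 lowered. QCR7, a subunit of the cytochrome bc1 complex, had 0.49 over 15 and PET9, the main ADP/ATP carrier, −0.10 over 21. The IVT median of this list was 0.42 over 92 positions, and the natural median over its 97 positions with reads labelled heat shock was −0.63 against those libraries.

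Ribosomal protein genes had a median of 0.19 over 1333 positions in 105 genes, with 119 raised (8.93%) and 50 lowered (3.75%), close to all positions in genes, and the median was −0.67 with 10 reads added to each count. RPS31, RPS12 and RPL28 had medians of 0.03, −0.02 and 0.01, and RPL3 had 0.30. RPL41A and RPL41B stood lower, at −1.82 over 21 positions and −1.43 over 25, with 8 lowered and 0 raised in each. The IVT median of the list was 0.39 over its 559 positions with IVT reads. Their level fell as given above, and whether the level took part in the change was not tested.

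Glycolysis and fermentation genes, the deepest list with 1970 positions in 17 genes, had a median of 0.12. Of these positions 125 (6.35%) were raised and 55 (2.79%) lowered, beside 10.2% and 4.17% over all positions in genes. ADH1 had 0.18 over 395 positions, with 15 raised and 7 lowered, TDH3 0.00 over 337 and ENO1, enolase, 0.04 over 212. Chaperones had 0.35 over 332 positions, with 39 raised (11.7%) and 20 lowered (6.02%). HSP60, the mitochondrial chaperonin, had 0.56 over 37 and HSC82, the constitutive HSP90, −0.03 over 83. HSP82, its stress-induced paralog, had 0.97 over 25.

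Stress and stationary phase genes had a median of −0.09 over 252 positions. Of these, 18 (7.14%) were raised and 23 (9.13%) lowered, beside 10.2% and 4.17% over all positions in genes. SOD1, the cytosolic superoxide dismutase, had 0.33 over 97, and UBI4, polyubiquitin, 0.90 over 13 with 4 raised and 0 lowered. HOR7, in the same list, had its 14 lowered positions and 0 raised. Cell wall genes had −0.02 over 306 positions, with 16 raised (5.23%) and 18 lowered (5.88%). Histones, tubulin and actin had 0.24 over 302 positions, with 33 raised (10.9%) and 16 lowered (5.3%). Their median was −0.57 with 10 reads added to each count. HHT1 and HHT2, which encode the same histone H3, had 0.01 and −0.33.

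The enzymes that make Ψ could hardly be followed at this depth. Of the list of synthases and H/ACA proteins only NOP10, a core protein of the H/ACA particle, had positions kept, 5 of them with a median of −0.57. The list took 1032 RPM of the −CMCT library in log phase and 120 in stationary phase. Plasma membrane transporters had 3 positions in 2 genes and spliceosomal RNAs had 0.

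The list medians were lower against the other baselines. Against the libraries labelled log phase of the other culture the medians were −0.02 for translation factors, −0.34 for ribosomal proteins, −0.23 for glycolysis, −0.11 for chaperones and −0.22 for all positions in genes. These medians rest on the positions with at least 20 reads there, 69 of 131 for translation factors and 109 of 1333 for ribosomal proteins. Against the libraries labelled heat shock they were −0.14, −0.44, −0.55, −0.49 and −0.46 in the same order. The shift between baselines was thus also present over all positions in genes. IVT RNA had a median of 0.28 over the 3907 positions in genes with at least 20 IVT reads in both growth phases. The natural median of 0.25 was over all 6787, so these medians are not from the same positions.

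**Figure D5:**
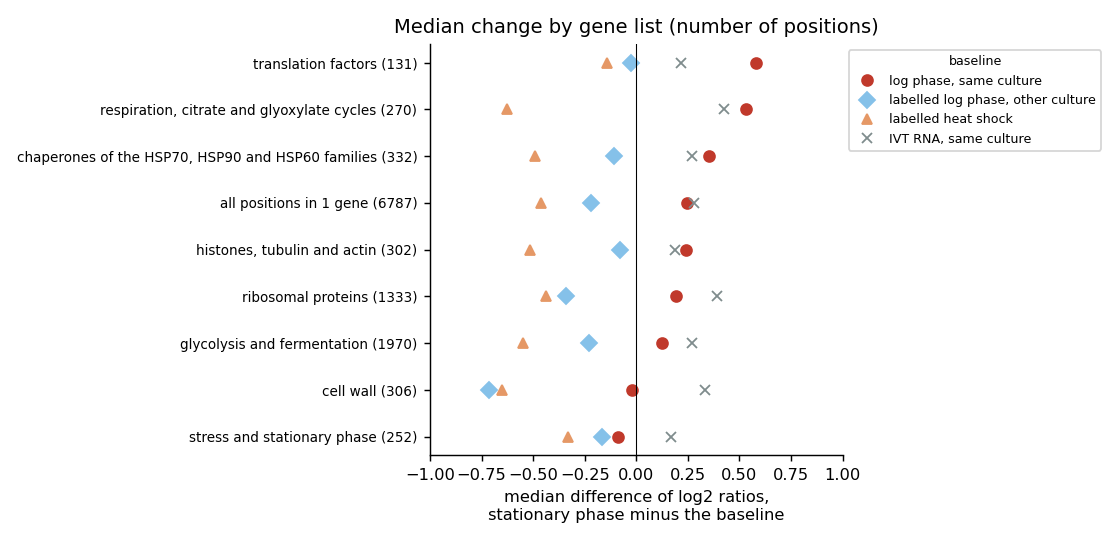
Median log2 change of +CMCT to −CMCT ratio per gene list against log phase of the same culture, against the other experiments as labelled, and in IVT RNA, with the same for all positions in genes. Translation factors (0.58) and respiration (0.53) have the highest medians against log phase of the same culture, and list medians against the other experiments lie at or below 0.

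Candidate sites listed for mRNA in log phase and heat shock were mostly not deep enough in stationary phase. Of 746 sites 93 were kept. Of these, 62 had been picked on log phase of the same culture, and all 62 had a change below 0, with a median of −3.22 and 56 lowered 4-fold; since their log phase ratio chose them, this is a description only. The 31 picked on the other experiments had a median change of −1.13, with 26 below 0, 6 lowered and 0 raised 4-fold, beside 6.61% raised and 7.89% lowered over all positions. Their median ratio was 0.56 in stationary phase and 1.32 in log phase, and 24 and 30 of the 31 lay above the median of all positions kept.

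Of the 24 sites listed in more than one experiment 6 were kept, and RPL11A, TEF1 and the repeat pair are described above. The site in the 3′ UTR of ADH1, position 159531 of chromosome 15, had 42 and 4 reads in stationary phase and 63 and 1 in log phase, a change of −3.09 with an interval of −5.52 to −0.66. The site in the 3′ UTR of TEF1, position 702042 of chromosome 16, had 24 and 3 in stationary phase and 32 and 0 in log phase, a change of −3.60 with an interval of −6.85 to −0.35. Both had been picked on log phase of the same culture. Among sites picked on heat shock, POR1 at position 518061 of chromosome 14 had 94 and 4 reads in stationary phase and 17 and 6 in log phase, the highest change of all 93 at 1.69, with an interval of −0.12 to 3.50. MMF1, a mitochondrial matrix protein, had 17 and 8 in stationary phase and 23 and 0 in log phase at position 258147 of chromosome 9, a change of −4.78 with an interval of −7.89 to −1.67.

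The known Ψ of 18S and 25S rRNA, outside the positions kept, gave a measure of how well CMCT marked Ψ in each library pair. The paper reports weaker enrichment of these sites in its stationary libraries. It judged them of lower technical quality and limited the rest of its work to log phase and heat shock. At the 43 known sites the median log2 ratio was 1.82 in stationary phase and 2.74 in log phase of the same culture, against −0.48 and −0.75 at other rRNA nucleotides. In the libraries labelled log phase of the other culture it was 3.60 and in those labelled heat shock 3.13. A 4-fold ratio was reached at 19, 30, 43 and 36 of the 43 sites in that order of experiments. The stationary ratio was below log phase of the same culture at 40 of 43 sites, with a median difference of −0.85, and the log phase ratio was below that labelled log phase of the other culture at 40 of 43, so the marking of known sites also differed between experiments that did not involve stationary phase. IVT RNA had a median of 1.14 at the same sites in stationary phase and −0.48 in log phase, where 8 and 0 of the 43 reached 4-fold. Other rRNA nucleotides had IVT medians of 0.35 and 0.21. In the IVT libraries labelled log phase of the other culture the median was 1.89, with 20 sites at 4-fold, against 0.07 at other nucleotides. In those labelled heat shock it was −0.18, with 0 sites, against 0.23. The IVT medians at known sites were thus above those of other nucleotides in stationary phase and in the libraries labelled log phase of the other culture. They were below them in the other experiments. Why known sites stood higher in IVT RNA of stationary phase was not tested. The IVT libraries labelled log phase of the other culture differed in their transcripts, as given above for HSP26. Their ratio therefore does not measure CMCT alone. The part of the lower marking in stationary phase in the changes at mRNA positions was not tested.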

How the data were processed

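The authors deposited 1 table of raw read counts, without normalization, with a count for each genome position in each of 16 libraries. Per the labels' processing notes, reads were aligned with Bowtie 0.12.5, and the build is named as sacCer3. The deposited positions differed by −5 to 5 nt from the R64 annotation at 21 of 22 sites and by 356 nt at FBA1, so that annotation gave names only, inside genes by a margin of 20 nt (400 on chromosome 11). The counts carry neither strand nor base. A log phase column shows the condition that its culture went on to, and no replicate number.

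From the counts, 1 read was added to each count before the totals outside the rDNA repeat scaled the log2 ratios. edgeR 4.0.16 in R 4.3.3 tested the interaction in 6 natural libraries with experiment as a block, TMM factors and Benjamini-Hochberg adjustment, and DESeq2 1.42.0 was an alternative. edgeR was tested on simulated counts drawn with 1 common dispersion, with 50 positions changed at each of 4 sizes. For log2 changes of 2, 3, 4 and 6 it called 2, 14, 29 and 45 of the 50. It also made 11 false calls at unchanged positions, so a call by this test can be false.

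Named positions were the 12 largest rises and falls with at least 50 reads in both growth phases, 1 per gene, and for genes the 5 highest and 5 lowest medians over at least 50 positions and up to 4 genes per list; the medians of HSP82, RPL41A and RPL41B, and positions that were high or moved in several experiments, were named after their values were seen. The members and lists were chosen with earlier results of these data known. Alternatives were a pseudocount, read minimums, scaling, baselines, fold limits and IVT subtraction. Tests by base or motif were not run.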

Additional observations from a re-analysis of the deposited data

Results flagged for a closer look

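Mitochondrial reads fell outside every comparison, since no position of that genome was kept, and were flagged because they were high in stationary phase. Stationary natural RNA held 97392 +CMCT and 21900 −CMCT mitochondrial reads, against 2138 and 1612 in log phase of the same culture. Scaled to the library total outside the rDNA repeat this was 4369 and 5568 RPM in stationary phase and 166 and 309 RPM in log phase. In stationary phase 1408 mitochondrial positions had at least 20 reads, against 0 in log phase.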

How the results depend on the processing

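With a pseudocount of 10, 107 positions were raised and 743 lowered. With a minimum of 50 reads the counts were 272 and 195 of 4875, with 100 reads 99 and 37 of 1669, and with 1 or more reads 28078 and 116721 of 438465, with a median of −0.87. Without scaling the counts were 4114 and 278, with a median of 1.13. With the libraries labelled log phase of the other culture as baseline they were 140 and 529 of 9977, with the mean of both log phase experiments 121 and 315 of 8265, and with every listed position taken 2593 and 6283 of 63033. With the IVT difference subtracted, 664 were raised and 952 lowered of 9540, against 449 and 634 of the same positions before. At 2-fold 3452 and 3867 passed, and at 8-fold 254 and 358. With the libraries labelled heat shock as baseline, chosen after seeing the data, 298 were raised and 837 lowered of 16387.

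edgeR called 2 positions higher and 0 lower with at least 100 reads. When the libraries labelled heat shock took the place of either log phase experiment (leave-one-out), from 0 to 43 were higher and 0 to 43 lower; the 43 and 43 arose without log phase of the same culture. Without the replicate block of the +CMCT and −CMCT pair, edgeR called 0 and 0, with 26 and 12 at an unadjusted p under 0.05.

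With a pseudocount of 10 the medians were −0.34 for translation factors, −0.57 for histones, tubulin and actin, −0.67 for ribosomal proteins, −0.46 for TDH2 and −0.44 for CPR1. Against the libraries labelled heat shock they were −0.60 for respiration, −0.49 for chaperones, −1.45 for synthases and H/ACA proteins (2.27 with 50 reads), −0.47 for TDH2, −0.82 for POR1, −0.36 for CPR1 and −0.49 for TDH1, and GLK1 position 52278 had −0.17. For this heat shock baseline, positions were kept anew by their reads in stationary phase and in those libraries. Its medians can therefore differ from those given above for the positions named there. Of the list medians, 26 kept their sign and 21 did not. The cause was not tested. Alternatives by base, uridine or motif were not run because no genome was used. Depth limits ratios at positions with few −CMCT reads. Copies of a repeat whose counts were not all equal, and neighbouring nucleotides, were counted as separate positions.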
